A study of Mus musculus with 8 samples.

Results

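These regions were stretches of chromatin that held one of the best-ranked ATAC-seq peaks in every library of SN4741 cells at 39 °C and in no library at 37 °C, where lower-ranked peaks were allowed, and that lacked a p53 decamer at their centre. In ATAC-seq a transposase inserts sequencing adapters where DNA is accessible, and the density of the resulting fragments marks open chromatin. Each of the 8 peak lists was cut to its best 54845 peaks by −log10 q, the length of the shortest list, and peaks overlapping by at least 1 bp were merged into 64768 regions. Of these, 1131 (1.75% of the merged regions) were called in 4 of 4 libraries at 39 °C and in 0 of 4 at 37 °C. Each summit was set at the median of the summits of the best peak in each of the 4 libraries at 39 °C. No decamer of the p53 consensus lay wholly within 100 bp of the summit in 895 of the 1131 regions, and these 895 are described here, beside the 236 that held one. The number depends on the cut, since 204 regions met the same rule with lists not cut. The regions were chosen by their peak calls at both temperatures and by their sequence, so their levels in these libraries are a description.

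SN4741 is a clonal mouse line of embryonic substantia nigra origin in which a tyrosine hydroxylase promoter drives a temperature-sensitive T antigen, and its karyotype is unstable and polyploid. The labels call the cells neural precursors of wild-type genotype. The 4 libraries at 37 °C came from cells kept at the permissive temperature in 10% serum, and the 4 at 39 °C from cells held at the non-permissive temperature in 0.5% serum for 48 h. Temperature and serum therefore cannot be told apart. Nothing in the labels says that the libraries of one temperature were grown as separate cultures, so the spread between them may be technical. The peak caller kept 49.8 to 169 M (mega) fragments per library at 37 °C and 52.7 to 71.2 M at 39 °C. Library 4 at 39 °C stood apart, because its whole list entered and its last peak had a −log10 q of 1.61, where the other 7 lists ended between 9.88 and 33.1. Of the markers checked at promoters within 1 kb, all 6 mesenchymal genes, 4 of 8 neural precursor genes (Nes, Sox2, Msi1 and Vim), 4 of 8 dopaminergic genes (Th, Pitx3, Nr4a2 and En1), 4 of 5 neuron genes (Tubb3, Rbfox3, Map2 and Snap25), 3 of 5 glial genes (Gfap, Aqp4 and Mbp), 1 of 2 blood genes (Csf1r) and none of 3 endothelial genes had a region called in all 8 libraries. Among all 21911 coding genes the share was 59.8%, and no cell type is read from these few genes.

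The T antigen binds and inactivates p53, a transcription factor that recognises paired decamers, and at the non-permissive temperature the activity of the antigen is diminished. The regions kept here are those in which such a decamer was not found, so other sequence families are of interest. AP-1 factors (the Fos and Jun families) bind many stimulus-responsive enhancers, RUNX factors act in blood and skeletal lineages, and C/EBP factors in differentiation and stress. Forkhead factors include proteins that act when growth signals are withdrawn, SOX factors act in neural and cartilage lineages, and TEAD factors carry the output of the Hippo pathway, which follows cell density and serum.

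The sequences around the summits of 5 of the 6 regions with the best mean rank at 39 °C are shown first, because they are among the strongest of the set. Each is given on the forward strand of mm10, over 100 bp on each side of the summit, with capitals marking sites of 7 families on either strand. An AP-1 site was read as TGAGTCA and a RUNX site as the letters TGTGGTT, without mismatch. A C/EBP site was read as TTGCNNAA, and a GATA site as AGATAA with A or T allowed in first place. A Forkhead site was read as TGTTTAC and a TEAD site as the letters ACATTCC. A SOX site was read as ACAANGG, in which N was A or T.
Near Tspan7, chrX:10574559-10574759, forward strand: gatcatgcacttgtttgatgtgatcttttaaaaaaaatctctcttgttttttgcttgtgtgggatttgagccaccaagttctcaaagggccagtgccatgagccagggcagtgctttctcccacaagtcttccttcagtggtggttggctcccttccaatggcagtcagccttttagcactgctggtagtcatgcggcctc
Near Impg1, chr9:80814805-80815005, forward strand: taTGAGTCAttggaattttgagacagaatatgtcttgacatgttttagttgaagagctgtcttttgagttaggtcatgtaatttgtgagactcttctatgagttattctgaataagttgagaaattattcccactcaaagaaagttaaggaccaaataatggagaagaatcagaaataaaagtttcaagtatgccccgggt
Near Shroom2, chrX:152735479-152735679, forward strand: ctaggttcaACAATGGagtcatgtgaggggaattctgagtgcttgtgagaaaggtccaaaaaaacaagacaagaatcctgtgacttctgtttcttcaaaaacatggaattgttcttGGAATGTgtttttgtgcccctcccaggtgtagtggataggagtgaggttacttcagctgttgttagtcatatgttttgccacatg
Near Atf2, chr2:73901328-73901528, forward strand: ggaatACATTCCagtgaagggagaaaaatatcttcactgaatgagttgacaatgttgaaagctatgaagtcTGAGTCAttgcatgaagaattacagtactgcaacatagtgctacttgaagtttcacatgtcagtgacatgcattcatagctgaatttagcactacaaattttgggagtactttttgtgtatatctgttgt
Near Trappc10, chr10:78194819-78195019, forward strand: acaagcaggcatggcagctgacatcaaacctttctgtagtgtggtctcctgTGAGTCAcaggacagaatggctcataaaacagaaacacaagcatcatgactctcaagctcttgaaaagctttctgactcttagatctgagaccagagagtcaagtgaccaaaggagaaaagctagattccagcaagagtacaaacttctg

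The window near Tspan7 held no site of these 7 families, those near Impg1 and Trappc10 held an AP-1 site each, and the windows near Shroom2 and Atf2 held a TEAD site beside a SOX and an AP-1 site. The windows of a further 4 sites are shown because they lie in the best-ranked 2 regions with a RUNX site and in well-ranked regions with a Forkhead and a C/EBP site. They are written on the strand that reads the motif, with the motif in capitals. Regions are named by the nearest coding gene whatever its distance, and the start of Igfbp3 was 611332 bp away.
RUNX site near Exoc4, chr6:33721397-33721437, forward strand: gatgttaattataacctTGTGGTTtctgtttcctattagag
RUNX site, nearest coding gene Igfbp3, chr11:7825145-7825185, reverse strand: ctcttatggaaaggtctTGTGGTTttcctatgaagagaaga
Forkhead site near Mkln1, chr6:31457211-31457251, forward strand: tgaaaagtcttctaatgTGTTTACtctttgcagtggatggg
C/EBP site near Ppp6r3, chr19:3526357-3526398, reverse strand: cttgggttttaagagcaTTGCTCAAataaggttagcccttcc

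Fold enrichment, the ratio of the fragment pileup at the summit to one genome-wide background per library, was low at these regions. The median over the 895 regions was 5.49, 5.23, 5.69 and 3.71 in libraries 1 to 4 at 39 °C. Regions called in all 8 libraries had medians of 18.9, 17.5, 20.3 and 11.2 in the same libraries, so the 895 stood at 28.1% to 33.0% of that level in each. They ranked late as well, with median ranks of 43894, 43590, 45525 and 44336 among 54845 peaks. Only 7 of the 895 had a mean rank among the better 50% of ranks. The mean over the 4 libraries ran from 3.58 to 12.6 with a median of 5.01, and the median coefficient of variation between libraries was 21.4%. Library 4 was the lowest of the 4 at the median region as it was at regions called everywhere.

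**Figure D1:**
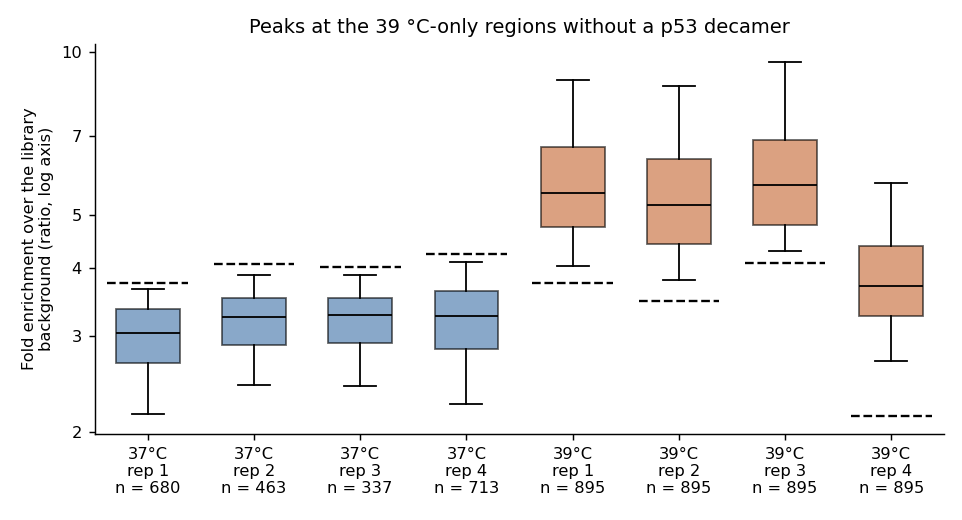
Fold enrichment (ratio, log axis) of the peaks at the 895 regions in each library, with the number of regions that had a peak. Boxes span the quartiles, the line is the median, whiskers run from the 5th to the 95th percentile, and the dashed line is the fold enrichment at the cut. By construction every peak at 37 °C ranked below the cut, and the medians there were 3.04 to 3.28.

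The best-ranked region lay in an intron of Tspan7, a membrane protein of the tetraspanin family, at chrX:10573867-10575149. Its fold enrichment was 14.3, 13.3, 14.8 and 8.21 in libraries 1 to 4 at 39 °C and 3.63, 3.07, 3.16 and 3.62 in libraries 1 to 4 at 37 °C, where all 4 peaks ranked below the cut. The lowest value at 39 °C was above the highest at 37 °C. The second, at chr9:80814048-80815747 with Impg1 as the nearest coding gene at 349424 bp, had 14.9, 14.7, 10.5 and 9.90 at 39 °C and 3.14, 3.25, 2.31 and 4.02 at 37 °C. Shroom2, an actin-binding protein, held the third in an intron at chrX:152734583-152737749, the widest of these at 3167 bp. Its values were 14.8, 12.4, 15.9 and 7.42 at 39 °C against 3.43, 3.34, 3.77 and 4.14 at 37 °C.

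The fourth region, at chr2:73901001-73901941, lay 8789 bp from the nearest start of Atf2, a transcription factor phosphorylated by the stress kinase p38. It had 11.7, 13.5, 14.2 and 7.42 at 39 °C, and a peak in only 2 libraries at 37 °C, of 2.68 in library 1 and 3.94 in library 4. The sixth, in an intron of the trafficking gene Trappc10 at chr10:78194349-78195752, had 12.0, 11.9, 13.9 and 7.65 at 39 °C. At 37 °C it had no peak in library 2 and 3.57, 3.16 and 3.43 in libraries 1, 3 and 4. In all 5 regions every peak at 39 °C exceeded every peak found at 37 °C. They were picked for the best ranks at 39 °C among regions with no peak above the cut at 37 °C, so nothing is read from this. Among all regions with a peak in all 8 full lists, 2.85% had such a gap.

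With the lists cut by rank, most of the regions also had a weaker peak at 37 °C. In the full lists, 755 of the 895 (84.4%, Wilson 95% interval 81.8% to 86.6%) had a peak in at least 1 library at 37 °C, ranked below the cut. With lists instead limited to peaks of −log10 q at least 5, 177 regions were chosen and 21 of them (11.9%) had such a peak, so the share depends on where the lists end. With the lists cut by rank, the number was 680 (76.0%) in library 1, 463 (51.7%) in library 2, 337 (37.7%) in library 3 and 713 (79.7%) in library 4. Among all regions called in 4 of 4 libraries at 39 °C and not in the library concerned, the share was 78.9%, 64.3%, 55.0% and 85.8%, a set that includes regions called in another library at 37 °C, and the share of the 895 was lower in each. The libraries with most of these peaks were the 2 deepest, with 169 and 158 M fragments against 64.2 and 49.8 M. The part that depth plays in the count was not tested.

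By the number of libraries at 37 °C with such a peak, 140 regions had none, 96 had 1, 162 had 2, 215 had 3 and 282 had 4. In the 282 with a peak in all 8 full lists, the mean fold enrichment at 39 °C divided by that at 37 °C had a median of 1.54, with quartiles of 1.31 and 1.81 and a range of 0.981 to 3.93. The lowest library at 39 °C was above the highest at 37 °C in 149 of the 282 (52.8%), beside 2.85% of all regions with a peak in all 8 full lists. The rule used this contrast, so nothing is read from that share. The median of the mean fold enrichment at 39 °C was 5.15 in the 140 with no peak at 37 °C, 5.15 in those with 1 to 3 and 4.85 in those with 4.

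**Figure D2:**
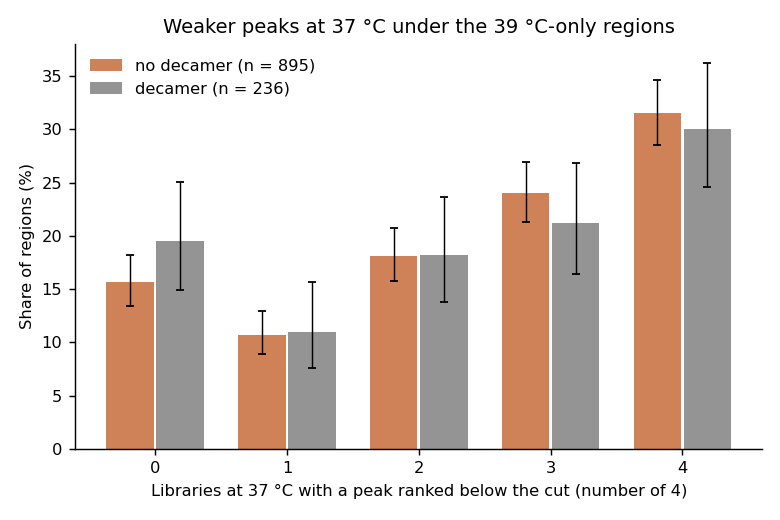
Share of regions (%) by the number of libraries at 37 °C, of 4, that had a peak below the cut, for the 895 regions without a decamer and the 236 with one. Bars on the columns are Wilson 95% intervals, which cover counting error only; 15.6% and 19.5% had none.

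**Figure D3:**
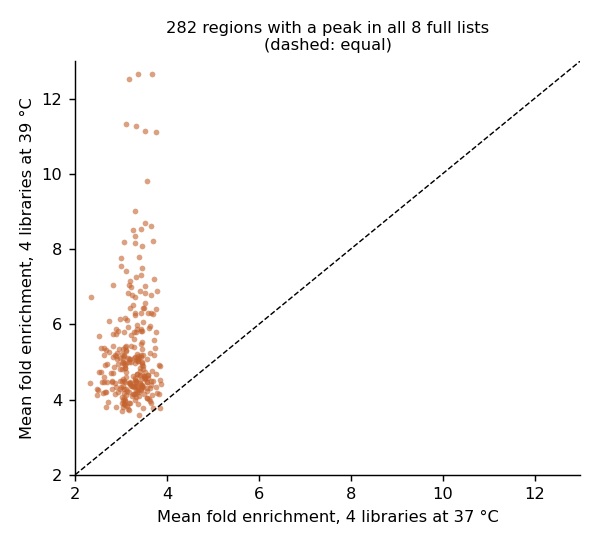
Mean fold enrichment (ratio) over the 4 libraries at 39 °C against that over the 4 at 37 °C, 1 point for each of the 282 regions with a peak in all 8 full lists. All points but 1 lie above the dashed line of equal values, and the cut on rank at 37 °C limits how far right a point can lie.

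Libraries left out of the choice give a measure that the rule did not use. Here the regions stayed merged over all 8 lists, and only the calls of 1 library were set aside. Regions chosen without library 1, 2 or 3 at 39 °C were called in it in 94.3% of 954, 94.2% of 948 and 85.8% of 1048 cases. Of the 1404 chosen without library 4, 63.4% were called in it, the lowest of the 4. For regions called by the same 3 libraries and by 1 or more libraries at 37 °C, the shares were 99.4%, 99.2%, 98.9% and 93.7%. In the other direction, regions chosen without library 1 at 37 °C were called in it in 15.3% of 1057 cases, and those chosen without libraries 2, 3 and 4 in 6.09%, 7.45% and 7.54%. For regions called in 4 of 4 libraries at 39 °C and by 1 or more of the other 3 at 37 °C, the shares were 99.0%, 97.9%, 97.0% and 98.7%. The calls of a left-out library thus followed the choice in most cases at both temperatures, and least often in library 4 at 39 °C and library 1 at 37 °C.

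The 895 and the 236 regions with a decamer were chosen by the same calls, so their levels are set side by side with no test. For the 895 the median rank was later in 4 of 4 libraries at 39 °C, by 1461 ± 400 places (SD, n = 4). Their median fold enrichment was lower in 4 of 4, with a difference of -0.294 ± 0.121, and their peaks were narrower in 4 of 4, with a difference of -52.0 ± 18.5 bp. The libraries re-read the same regions and are no independent choice of them. The share with a peak below the cut at 37 °C was higher in 3 of 4 libraries, by 3.42 ± 7.21 percentage points (SD, n = 4), a difference smaller than its spread. Its direction turned with peaks of −log10 q at least 5, to -1.91 points, and with windows around summits, to -4.81 points.

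The regions lay away from promoters. Only 53 (5.92%, interval 4.56% to 7.66%) were within 1 kb of a transcription start site, against 13.3% of the 1576 regions called only at 37 °C (2.43% of the merged regions), 32.8% of the 41180 called in all 8 and 24.5% of all merged regions. The share was 10.2% with windows of 100 bp around summits in place of whole peaks and 3.43% with lists not cut. By the place of the summit, 53.3% were in introns, 41.9% between genes and 4.80% in exons. The median distance to the nearest coding start was 24.4 kb, against 12.8 kb for 37 °C-only regions and 9.07 kb for regions called in all 8, and 22.6% were over 100 kb away. They were narrow, with a median width of 769 bp against 952 and 1850 bp, and their windows were poor in G and C, with a median GC content of 45.3% against 51.2% and 52.2%. For the regions with a decamer these values were 6.78% within 1 kb, a median width of 854 bp and a GC content of 46.8%.

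Sites of 7 motif families and the homeodomain letters TAATTA were counted within 100 bp of the summit, among 32 motifs searched on both strands. C/EBP, GATA and homeodomain sites were singled out after their values were seen. RUNX sites were held by 147 regions (16.4%, interval 14.1% to 19.0%), against 10.6% of the regions with a decamer, 11.4% of 37 °C-only regions, 10.0% of those called in all 8 and 10.5% of all merged regions. C/EBP sites were held by 132 (14.7%, interval 12.6% to 17.2%), against 14.8%, 6.85%, 8.03% and 8.57% in the same order. The 2 kinds of 39 °C-only region thus had nearly the same share of C/EBP sites. GATA sites were held by 15.3%, against 9.70% of regions called in all 8. Forkhead sites were held by 4.92% against 2.76% of those called in all 8 and 6.36% of the regions with a decamer, and SOX sites by 9.72% against 7.21% and 7.20%. Homeodomain letters were held by 5.36% (interval 4.07% to 7.04%), against 3.39% of the regions with a decamer, 3.05% of 37 °C-only regions, 2.81% of all merged regions and 989 of the 41180 called in all 8.

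AP-1 sites were the most frequent of these families, in 222 regions (24.8%, interval 22.1% to 27.7%), a share near the 27.4% of 37 °C-only regions and the 26.9% of those called in all 8. TEAD sites were held by 5.70% (interval 4.36% to 7.41%), against 12.1% of 37 °C-only regions, 6.16% of those called in all 8 and 6.50% of all merged regions, so they were near the share over all regions. The share was 2.45% with lists not cut, 2.82% with peaks of −log10 q at least 5 and 3.42% with the best 40000 peaks. CTCF, the insulator protein, had a site in 0.670%, against 0.847% of the regions with a decamer, 3.49% of those called in all 8 and 3.91% of all merged regions. The GC-rich letters bound by SP and KLF factors stood in 0.223%, against 0.847%, 5.65% and 3.98% in the same order and 1.40% of 37 °C-only regions. The motif of heat shock factor was found in 4 regions (0.447%, interval 0.174% to 1.14%), against 0.291% of regions called in all 8.

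**Figure D4:**
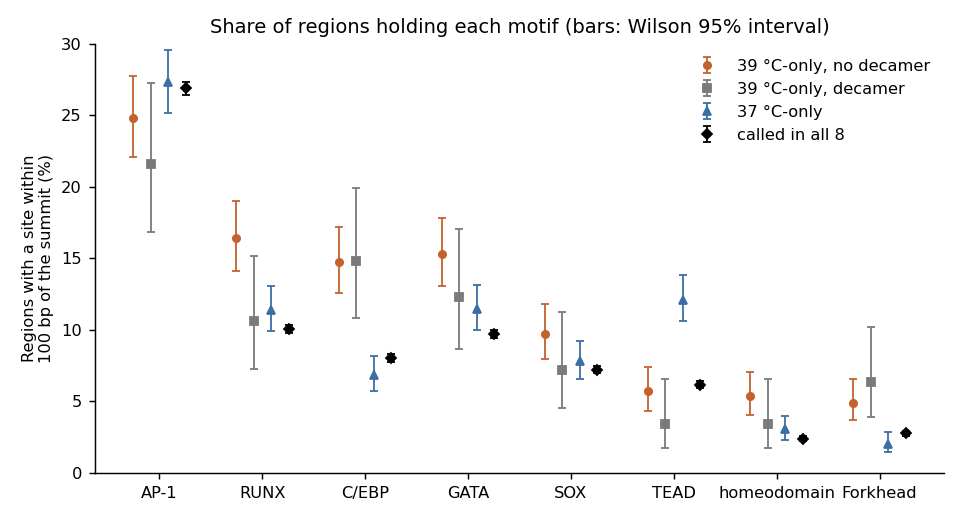
Share of regions (%) with a site within 100 bp of the summit for 8 motifs in 4 sets of regions, with Wilson 95% intervals that cover counting error only. RUNX sites reached 16.4% in the regions without a decamer, and TEAD sites 12.1% in 37 °C-only regions.

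Base composition moved with several of these shares. Among windows of 40% to 50% GC, RUNX sites were held by 16.9% (interval 14.0% to 20.4%) of 526 regions without a decamer, 16.1% of 14766 called in all 8, 13.6% of 37 °C-only regions, 12.0% of regions with a decamer and 14.9% of all merged regions. GATA sites were held by 15.2% and by 15.4% of regions called in all 8. The excess of both over regions called in all 8 was thus small or absent at like GC content. Homeodomain letters were held by 5.51% (interval 3.87% to 7.81%), against 3.98% of regions called in all 8 and 4.37% of 37 °C-only regions. Forkhead sites were held by 4.75% (interval 3.24% to 6.92%) against 4.10%, and SOX sites by 8.94% against 9.93%, so the order of the SOX shares turned. C/EBP sites kept a higher share at 15.8% (interval 12.9% to 19.1%) against 11.4% of regions called in all 8 and 7.77% of 37 °C-only regions. AP-1 sites were held by 24.5% against 40.2% and 34.1%, and TEAD sites by 5.70% against 9.01% and 16.3%. Within this GC range both were therefore less frequent than in either of those sets. Of the 133 regions with a decamer in this range, 18.8% held C/EBP sites, 18.8% AP-1 sites and 1.50% (2 regions) TEAD sites. The higher C/EBP share and the lower AP-1 and TEAD shares were thus not particular to the regions without a decamer.

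The place of the sites differed between families. RUNX sites were 4.84 times as dense within 50 bp of the summit as at 300 to 500 bp, against 2.86 times in regions called in all 8 and 2.70 times in 37 °C-only regions. AP-1 sites were 8.83 times as dense, against 10.8 and 11.8 times, and C/EBP sites 1.68 times, against 1.08 and 1.02 times. In the regions with a decamer these ratios were 3.38 for RUNX, 7.25 for AP-1 and 1.71 for C/EBP, so that for C/EBP was like that of the 895. GATA sites were sparser at the summit than away from it in each set, at 0.719 times, against 0.538 and 0.515 times. Homeodomain letters were 1.10 times as dense, against 0.467 and 0.574 times. The ratio for RUNX rests on 104 sites near the summit and 86 away from it.

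**Figure D5:**
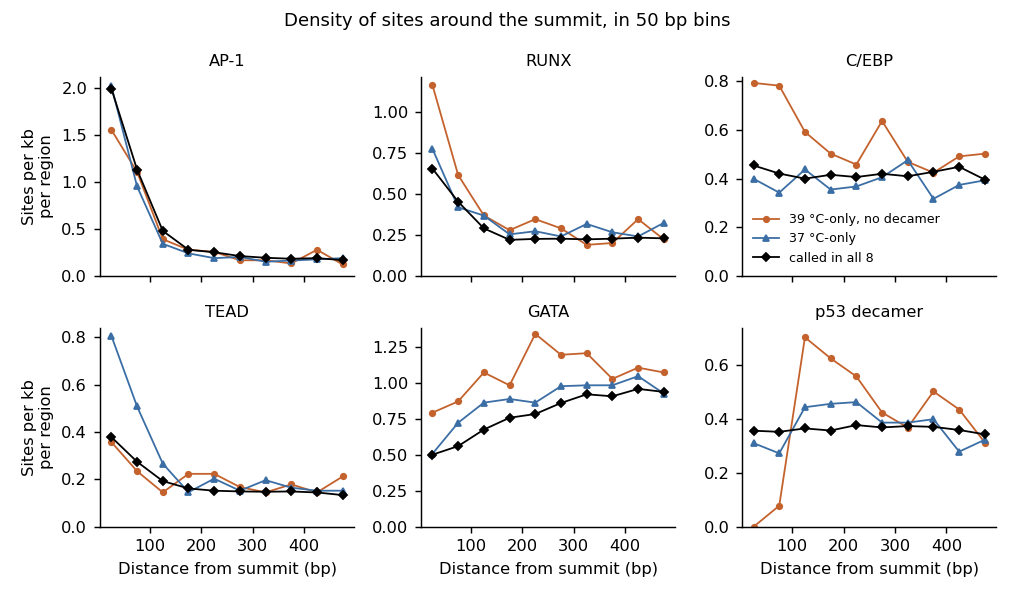
Sites per kb and region against the distance from the summit (bp, in bins of 50 bp) for 6 motifs, in the 895 regions without a decamer, in 37 °C-only regions and in regions called in all 8. RUNX and AP-1 sites peak at the summit, GATA sites do not, and the p53 decamer is near 0 within 100 bp because the rule removed it.

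Motif shares were also read by the number of peaks at 37 °C. RUNX sites were held by 19.3% of the 140 regions with no peak there, 18.6% of the 473 with a peak in 1 to 3 libraries and 11.3% of the 282 with a peak in all 4. AP-1 sites were held by 27.9%, 26.4% and 20.6%, C/EBP sites by 19.3%, 12.9% and 15.6%, and TEAD sites by 2.14%, 6.77% and 5.67%. For these 4 families the intervals of the first and last groups overlapped. The 282 were also richer in GC, at a median of 47.3% against 43.8% in the 140, and the part of base composition in these shares was not tested.

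The absence of a decamer did not remove all likeness to a p53 site. A full site joins 2 decamers, 20 letters in all. With the C and G of both cores kept, at least 17 of the 20 letters matched in 42 of the 895 regions (4.69%, interval 3.49% to 6.28%). They matched in 0.952% of 37 °C-only regions and in 1.50% of those called in all 8 (619 of 41180). In the 236 regions with a decamer, whose perfect decamer favours a match, the share was 29.7%. These next shares are of parts of the 895. The share was 11.4% (interval 7.16% to 17.8%) of the 140 regions with no peak at 37 °C (16 regions), 3.59% of the 473 with a peak in 1 to 3 libraries and 3.19% (interval 1.69% to 5.95%) of the 282 with a peak in all 4 libraries. Since no decamer was perfect, 18 was the most that these regions could reach, and 16 regions reached it. The best-ranked 2 of the 16, chosen after their values were seen, are shown with the matching letters of the full site in capitals, and both had no peak in any library at 37 °C.
Near Fbxw7, chr3:84963275-84963328, forward strand: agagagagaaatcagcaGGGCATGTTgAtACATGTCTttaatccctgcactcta
Near Myo16, chr8:10185347-10185400, forward strand: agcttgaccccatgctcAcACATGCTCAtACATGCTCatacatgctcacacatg

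The first lies in an intron of Fbxw7, the substrate receptor of a ubiquitin ligase, and had a fold enrichment of 10.4, 10.8, 11.5 and 6.52 in libraries 1 to 4 at 39 °C. The second lies in an intron of Myo16, an unconventional myosin, within repeated copies of a short unit, and had 11.9, 8.95, 10.3 and 7.54. Decamers also stood just outside the window. Their density at 100 to 250 bp from the summit was 0.629 per kb and region, against 0.405 at 300 to 500 bp. Regions called in all 8 had 0.367 and 0.362, 37 °C-only regions 0.455 and 0.347, and regions with a decamer 1.29 and 0.667. A rise towards the summit was thus not particular to the 895, whose summits differed between libraries by a median of 73 bp. The nearest decamer ended within 150 bp of the summit in 65 regions and between 150 and 250 bp in 92, while 416 (46.5%) had none within 1 kb. The 2 regions closest to the limit had a decamer whose far end lay 101 bp from the summit, and are shown with the decamer in capitals.
Near Marcks, chr10:37227974-37228017, forward strand: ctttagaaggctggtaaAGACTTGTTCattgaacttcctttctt
Near Myom2, chr8:15223760-15223803, forward strand: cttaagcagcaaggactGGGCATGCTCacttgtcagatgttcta

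2 regions with a decamer, near Crmp1 and H2al1j, had its far end at 100 bp and were therefore not among the 895. On the peak cut, the regions near Htra3 and Kng2 were just inside, at rank 54835 in library 4 and 54834 in library 3 at 39 °C. The regions near Uso1 and Rnf4 were just outside, called in 1 library at 37 °C at ranks 54839 and 54836. The regions near Vgll4 and Hsph1 were kept although their best peaks at 37 °C ranked 54851 and 54877, and 425 regions called in 4 of 4 libraries at 39 °C had a call in 1 library at 37 °C.

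The regions were scattered over many genes. They had 804 nearest coding genes, of which 733 had 1 region and 16 had 3 or more. Marcks, an actin-binding substrate of protein kinase C, had 7, spread from 16406 to 554146 bp from its start, and 3 of the 7 had no peak at 37 °C. The best-ranked of the 7 had a fold enrichment of 8.79, 7.84, 8.98 and 5.17 at 39 °C and no peak at 37 °C. Fat1 and Cdh13 (atypical cadherins), Igfbp3 (a carrier of insulin-like growth factors), Itga9 (an integrin), Thrb (a thyroid hormone receptor), Vstm2b and Slc22a23 had 3 each, and are the 7 whose best region ranked highest among the genes with 3. The 3 of Igfbp3 lay 498489 to 615919 bp from its start. The 3 at Itga9 lay within 61.9 kb and 2 of them had no peak at 37 °C. A region lay a median of 14.9 kb from the nearest region called in all 8 and 648 kb from the next of the 895. Of the 804 genes, 594 (73.9%) had a promoter called in all 8 libraries, against 59.8% of 21911 coding genes. The nearest genes of the other sets of regions were not compared, so the difference is not read as particular to the 895.

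Lists of genes chosen for this tissue and treatment were read against all coding genes, of which 8.63% had one of the 895 regions within 100 kb of a start. Among p53 target genes the count was 7 of 30 (Btg2, Fas, Ei24, Rrm2b, Perp, Dcxr and Tnfrsf10b), and the closest was 7912 bp from Tnfrsf10b, a death receptor. It was 6 of 40 among genes of the RUNX, AP-1, TEAD, Forkhead and SOX factors, with Foxp1, Foxc1, Sox4 and Runx1 the best ranked. It was 5 of 32 for blood vessel formation (Pecam1, Tek, Nrp1, Vegfa and Nrp2) and 5 of 32 for cartilage and bone (Bmpr1a, Nog, Matn1, Msx1 and Bmp2). For regions with a decamer these lists had 6.67%, 5%, 9.38% and 6.25% in the same order, beside 2.46% of all coding genes. For 37 °C-only regions they had 23.3%, 40%, 18.8% and 28.1%, beside 21.8%. A share above that of all coding genes was thus not particular to the 895. The region 345 bp from a start of Tek, the angiopoietin receptor, had a fold enrichment of 7.42, 5.70, 6.49 and 5.62 at 39 °C and 3.60, 3.16, 3.53 and 2.95 at 37 °C.

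The remaining lists were near or below that background. The count was 4 of 36 for neuronal differentiation (Nrxn3, Ntrk3, Neurod1 and Neurog1), 1 of 20 for dopaminergic neuron genes (Gfra1), 1 of 34 for extracellular matrix and adhesion (Col6a2) and 1 of 30 for cell cycle arrest and senescence (Igfbp3, by a region 57445 bp away that was nearest to another coding gene). It was 3 of 37 for TGF-beta, BMP and Wnt signalling (Sfrp2, Tcf7l2 and Axin2) and 2 of 24 for p38 and stress kinases (Atf2 and Dusp16). It was 2 of 23 for interferon and innate response (Mx1 and Nfkbia), 2 of 22 for lysosome and autophagy (Ulk1 and Atg7) and 1 of 20 for heat shock and chaperones (Hsph1). The region 88877 bp from Gfra1, a receptor subunit for the neurotrophic factor GDNF, had 5.49, 4.51, 4.49 and 4.16 at 39 °C and no peak at 37 °C. Distance alone tied regions to genes, and expression was not analysed here.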

How the data were processed

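The authors aligned paired ATAC-seq reads of 8 libraries to mm10 with Bowtie2 2.4.1, removed duplicates by their methods and called peaks per library with MACS 3.0.0a7, with no control and no local background, at a q-value of 0.05. The headers of the deposited files show a redundant rate of 15% to 37% in the input of the caller, which therefore held repeated fragments. The methods also describe taking out peaks in artefact-prone (blacklisted) regions, but 0 of the 8 deposited lists skip a peak number, so such peaks may remain among the regions. The deposited lists give each peak's fold enrichment, a ratio to one background per library, its pileup signal in unscaled fragments, and its −log10 p-value and −log10 q-value. Without read counts, comparisons rest on calls and ranks, and no count test was run. The exact paired permutation tests planned against regions with a decamer are not reported, because the choice of regions used those values.

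Here the lists were cut, merged and searched with Python 3.11.15, pandas 2.3.3 and SciPy 1.17.1, and the steps were tested on simulated data. Genes came from GENCODE release M21 and sequence from RefSeq GRCm38.p6, the same build as mm10. Motifs allowed no mismatch. The Wilson 95% intervals describe counting error alone, and regions are not replicates. Depth, counted as fragments after the caller's own filter, was 49.8 to 169 M.

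The regions, lists and motifs were chosen with earlier results of these data known. Named regions were the 6 with the best mean rank, 1 of which is not reported here, the best-ranked 2 with each of the AP-1, RUNX, Forkhead, SOX and TEAD motifs and, added after the values were seen, with the C/EBP motif, those nearest each limit, the 8 genes with most regions (ties broken by best mean rank), and up to 4 genes of each list with the best-ranked region within 100 kb, with the further genes of a list named for completeness.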

Additional observations from a re-analysis of the deposited data

Results flagged for a closer look

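In groups of 4 libraries, 3 values lay far from the other 3 by Dixon's test, of 25 groups tested. All 3 come from the cut or from regions chosen by it, so they are a description and no chance rate applies. The −log10 q of the last peak kept in library 4 at 39 °C was 1.61, the lowest of its group. The median −log10 q of the 895 regions in the same library was 8.80, against 24.1 to 25.5 in the other 3 libraries at 39 °C. Without that library 1404 regions were chosen in place of 895. The median fold enrichment of the peaks below the cut in library 1 at 37 °C was 3.04, against 3.25 to 3.28 in the other 3, and that library also had the lowest fold enrichment at its cut, 3.76.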

How the results depend on the processing

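No paired analysis was possible because the calls at both temperatures chose the regions, which leaves no contrast between temperatures to fit a replicate block to. The differences from regions with a decamer are taken within each library, pair no replicate numbers across temperatures and are given without a test. The number of regions was 204 with lists not cut, 177 with all peaks of −log10 q at least 5, and, with regions merged anew from the other 7 lists, 953 to 1404 without 1 library, the highest without library 4 at 39 °C. The share within 1 kb of a start was 3.43% with lists not cut, 10.2% with windows around summits and 26.6% for starts within 5 kb (5.27% to 6.30% without 1 library). The median width was 913 bp with the best 40000 peaks and 269 bp with windows around summits (684 to 775 bp without 1 library). With lists not cut SOX sites were held by 6.86% and TEAD sites by 2.45%. With −log10 q at least 5, AP-1 sites were held by 20.3%, SOX by 7.91% and TEAD by 2.82%, and with the best 40000 peaks AP-1 by 28.7% and TEAD by 3.42%. Within 250 bp of the summit AP-1, RUNX, Forkhead, SOX and TEAD sites were held by 31.5%, 24.5%, 11.3%, 19.8% and 10.9%. Without 1 library these shares were 23.9% to 26.4%, 15.4% to 17.4%, 4.29% to 5.13%, 9.16% to 10.3% and 5.15% to 6.03%.

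The share with a peak below the cut in at least 1 library at 37 °C was 97.4% with the best 40000 peaks, 11.9% with −log10 q at least 5, 62.1% with windows around summits and 78.5% to 85.4% without 1 library; with lists not cut it cannot be defined. Against the regions with a decamer, the difference in that share was -1.91 points with −log10 q at least 5 and -4.81 points with windows around summits, a turn in direction whose cause was not tested, and 1.93 to 6.59 points without 1 library. The differences in rank (1124 to 2154 without 1 library) and fold enrichment (-0.465 to -0.198) kept their direction under every alternative run, but shrank to 776 and -0.146 with −log10 q at least 5 and to 592 and -0.124 with windows around summits. Keeping or leaving out all peaks tied at the cut, added after the data were seen, gave 886 and 907 regions. The share with a C/EBP site, also added then, was 13.8% to 17.5% under the alternatives that keep the window of 100 bp. With the deepest library at 169 M and the shallowest at 49.8 M fragments, a missing peak in a shallow list says only that none was detectable at that depth.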
